A study of Mus musculus with 30 samples.

Results

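Subcutaneous fat without the growth hormone receptor was compared with fat of the wild type. Members were chosen by label alone: 3 fat arrays labelled KO, in which the receptor gene was removed, and 3 labelled WT, so 6 of the 30 arrays of the series. The other fat arrays, 3 each, came from mice whose receptor was cut short at amino acid 569 or 391 or was altered in Box1, the segment that engages the kinase JAK2, and liver was measured in the same 5 genotypes. All mice were males of 4 months that had fasted overnight. The labels name no promoter, Cre driver or strain, and whether the 3 arrays of a group come from 3 animals is not stated. The p-values below therefore cover the spread between arrays, part of which may be technical. The WT arrays shared a slide with the 569 arrays, and the KO arrays shared another with the 391 arrays, so slide and genotype cannot be told apart between KO and WT.

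As background, growth hormone binds its receptor, JAK2 is activated and the transcription factor STAT5 is phosphorylated, which switches on Igf1, Igfals and the feedback inhibitors Cish and Socs2. In fat, growth hormone favours the breakdown of stored triglyceride, and mice without the receptor are small with a large subcutaneous fat depot. STAT5 binds a palindrome of the form TTCNNNGAA.

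The upstream stretches of 3 genes described below are shown because they hold, or lack, that palindrome: Igfals and Igf1, which stood lower in KO, and Cpne9, which stood higher. Each is the 250 bases before a start site in the RefSeq table of build GRCm38.p6, on the plus strand, at chr17:24877594-24877843 for Igfals, chr10:87860861-87861110 for Igf1 and chr6:113282057-113282306 for Cpne9. Capitals mark a match to TTCNNNGAA, which reads the same on both strands.
Igfals: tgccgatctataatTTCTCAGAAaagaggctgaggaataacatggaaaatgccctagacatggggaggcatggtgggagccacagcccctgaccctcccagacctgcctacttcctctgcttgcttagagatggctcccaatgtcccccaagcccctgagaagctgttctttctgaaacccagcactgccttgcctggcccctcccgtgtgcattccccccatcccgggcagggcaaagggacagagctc
Igf1: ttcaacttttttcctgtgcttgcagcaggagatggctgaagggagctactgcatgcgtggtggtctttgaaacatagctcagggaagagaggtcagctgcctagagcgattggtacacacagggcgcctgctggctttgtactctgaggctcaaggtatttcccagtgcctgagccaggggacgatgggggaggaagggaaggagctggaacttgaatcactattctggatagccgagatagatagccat
Cpne9: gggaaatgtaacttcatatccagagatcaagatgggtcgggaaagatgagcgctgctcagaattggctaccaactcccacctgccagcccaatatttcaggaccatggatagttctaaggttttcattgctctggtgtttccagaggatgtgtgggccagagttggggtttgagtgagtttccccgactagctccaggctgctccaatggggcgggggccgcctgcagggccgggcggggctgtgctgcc
The Igfals stretch holds 1 match, 236 bases before the start site, and a second Igfals start site has 1 match, TTCCTAGAA, 58 bases before it. No match lies in the Igf1 or Cpne9 stretch. In windows of 300 bases (250 before to 50 after a start site), 2582 of 27025 genes, 9.55%, held a match. Among the 15 genes leading each direction below, 1 of 11 with a window held one on the higher side (Tsc22d3) and 1 of 11 on the lower side (Igfals). Of 11 genes of the growth hormone axis and fat hormones named throughout, 10 had a window and 3 held a match: Igfals, Cish and Socs3.

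Each deposited value is a ratio of a probe to its own median over the 15 fat arrays, so it holds no absolute level, and levels of different genes cannot be compared. The medians of the 15 fat arrays lay between 0.99 and 1.01. The array labelled 569 replicate 3 stood apart: 12% of its probes were over 2-fold from the median, against 0.337% to 1.72% in the others. Its adipocyte markers averaged −2.42 (log2) and its skeletal muscle markers 5.01. That array is in neither group but enters the estimate of the spread, so results in fat are also given without it. This alternative was chosen after seeing the data. The contrast between tissues was not fitted without that array.

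The labelled tissue was checked against marker lists, given as the mean log2 ratio of a list in an array. Adipocyte markers averaged 0.12, 0.67 and −0.28 in WT and 0.01, 0.32 and 0.26 in KO, and the groups overlapped. Skeletal muscle markers averaged −2.07, −1.52 and −1.85 in WT and −0.63, 2.87 and 0.98 in KO, so every KO array stood above every WT array, as did 16 of the 20 markers and 8.46% of all probes. Acta1, skeletal muscle actin, had ratios of 0.05, 0.13 and 0.1 in WT and 1.47, 1.89 and 1.49 in KO. Lymphocyte markers averaged 0.78, −2.07 and 0.49 in WT and 0.54, −2.16 and −2.00 in KO, which split the arrays within each group. Hepatocyte markers averaged −0.40, 1.83 and 0.77 in WT and −0.29, 0.37 and 0.25 in KO. The part of these cell types in the results below was not tested, except where a value is given. In bulk tissue, fewer cells of a type and less RNA per cell cannot be told apart.

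**Figure D1:**
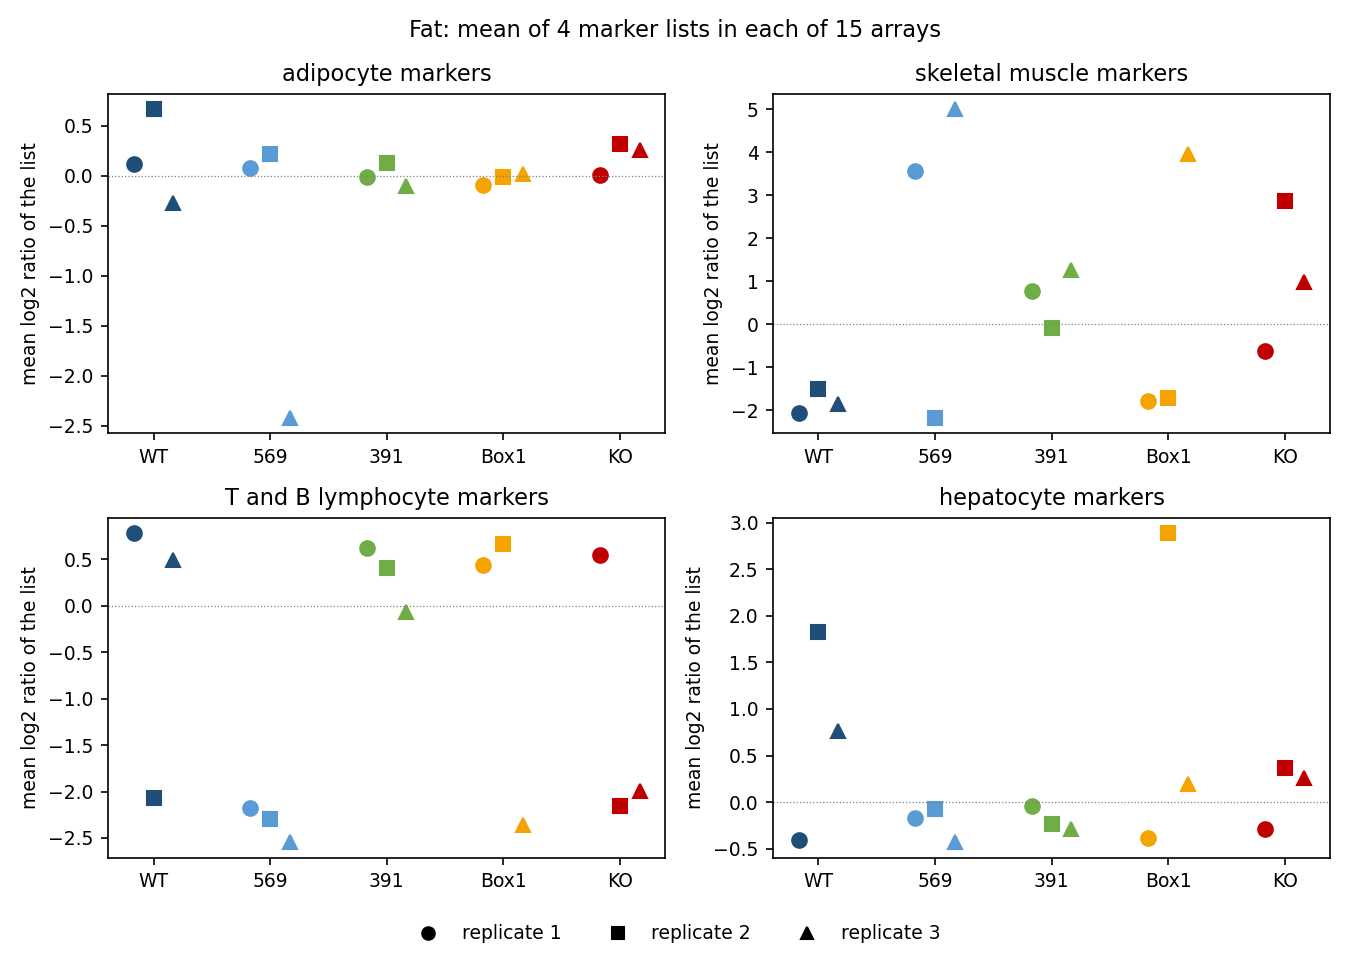
Mean log2 ratio of 4 marker lists (y axis) in each of the 15 fat arrays, by genotype (x axis), 1 symbol per replicate. All 3 KO arrays lie above all 3 WT arrays for skeletal muscle markers, lymphocyte markers split both groups, and 569 replicate 3 is lowest for adipocyte markers (−2.42).

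No probe passed the test between KO and WT. With limma over all 15 fat arrays and Benjamini-Hochberg adjustment, 0 of 46643 probes (0%) had an adjusted p under 0.05, and the smallest was 0.086, shared by Sctr, Igfals, Cpne9, Tead1, Tsc22d3 and Gab2. At an unadjusted p under 0.05 there were 2912 probes, 1864 higher in KO (4%) and 1048 lower (2.25%). All 3 KO arrays lay above all 3 WT arrays for 3945 probes (8.46%) and below them for 2150 (4.61%). Without 569 replicate 3, 44 probes (0.0943%) were called, 34 higher (0.0729%) and 10 lower (0.0214%). Genes below are therefore given as values. A call between KO and WT is from the fit of 14 arrays that leaves that array out, unless another fit is named. Differences are KO minus WT in log2 units ± SE, with n = 3 arrays each.

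**Figure D2:**
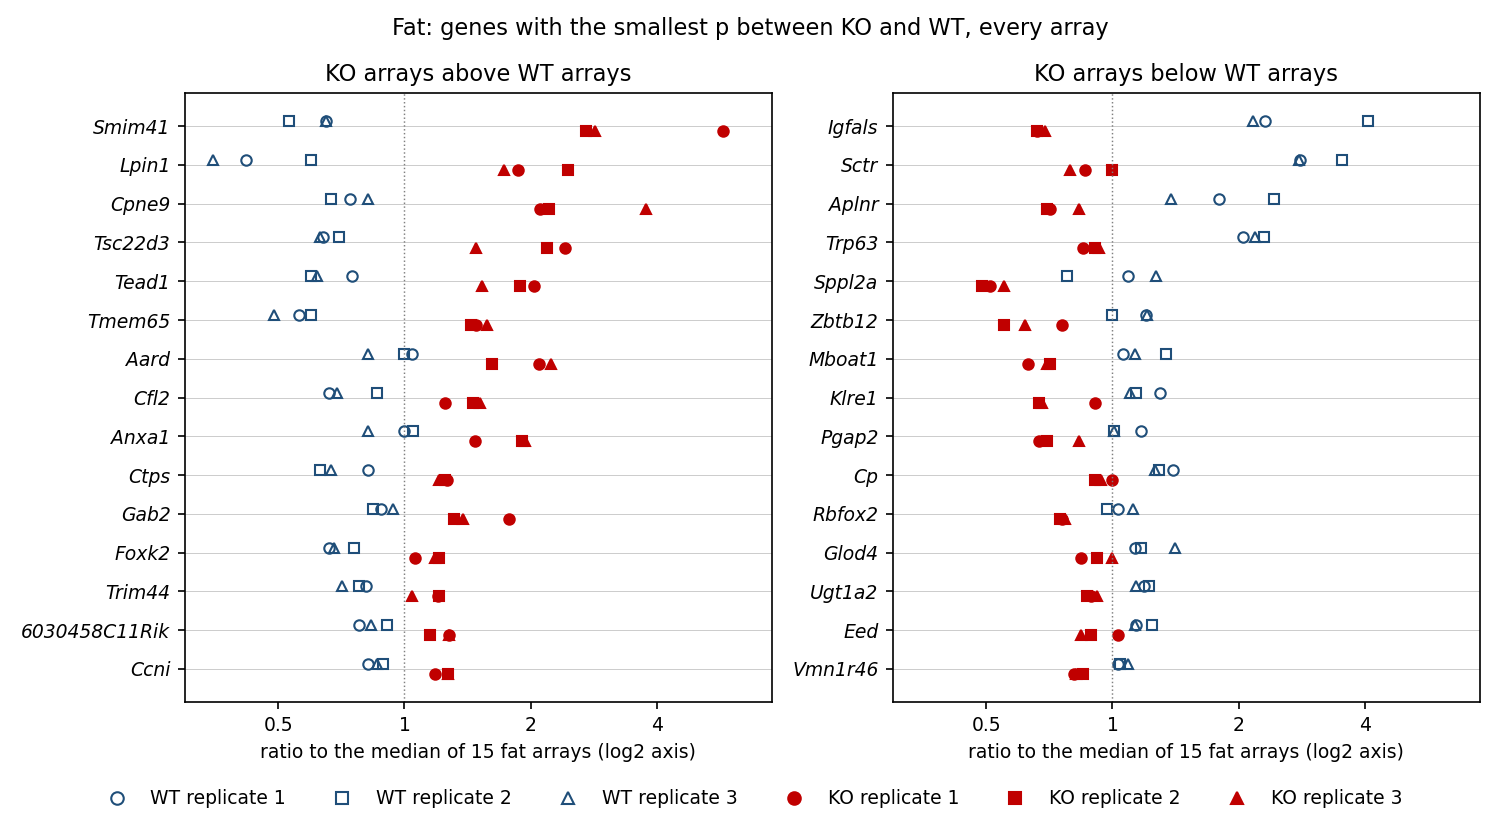
Ratio to the median of 15 fat arrays (log2 x axis) for the 15 genes of smallest p with KO arrays above WT (left) and the 15 with KO arrays below WT (right), 1 symbol per array. Only genes whose groups do not overlap were admitted, so the separation is how they were chosen. Smim41 reaches 5.75 in KO and Igfals 4.07 in WT.

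In the growth hormone axis, Igfals and Igf1 stood lower in KO fat. Igfals encodes the subunit that holds IGF1 in a long-lived plasma complex. Its ratios were 2.31, 4.07 and 2.16 in WT and 0.66, 0.66 and 0.69 in KO. Every KO array lay below every WT array, and the geometric mean was 4.07-fold higher in WT (−2.03 ± 0.27, limma adjusted p = 0.086 with 15 arrays). It was called without 569 replicate 3 (limma adjusted p = 0.031). Hepatocyte marker means overlapped between the groups, and their part in the Igfals difference was not tested.

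Igf1, the growth factor induced by growth hormone, was read by 2 probes. One gave 2.02, 3.49 and 2.2 in WT and 0.71, 0.85 and 1 in KO. The other gave 1.76, 3.08 and 2.02 in WT and 0.85, 0.88 and 0.88 in KO. Neither probe's groups overlapped. The differences were −1.56 ± 0.63 (limma adjusted p = 0.75) and −1.35 ± 0.72 (limma adjusted p = 0.84). Within 569 the same probes gave 0.48 and 0.34 in replicate 3 against 4.11 to 4.29 and 4.02 to 4.46 in the other two arrays. Without that array both probes were called, with SE of 0.22 and 0.20 (limma adjusted p = 0.031 and 0.036).

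The feedback inhibitors overlapped between the groups. Cish gave 1.32, 1 and 5.69 in WT and 1, 0.55 and 0.48 in KO, overlapping at 1 (−1.61 ± 0.58, limma adjusted p = 0.70). Its mean rests in part on WT replicate 3. Socs2 gave 1.17, 1.09 and 1.5 in WT and 1.36, 0.7 and 0.67 in KO (−0.53 ± 0.48), and Socs3 differed by −0.32 ± 0.41. Both genes overlapped between the groups, and both changed sign under an alternative.

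Ghr, the targeted gene, had 2 probes that both overlapped between KO and WT, at −1.47 ± 0.55 and −0.64 ± 0.73. Where these probes lie relative to the removed part is not stated, so they are no check of the label.

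Of the binding proteins, Igfbp5 gave 0.93, 1.51 and 1.2 in WT and 0.54, 0.82 and 0.79 in KO, with no overlap (−0.76 ± 0.34, limma adjusted p = 0.79). A second Igfbp5 probe overlapped, at 0.79, 1.12 and 1.16 against 0.42, 0.78 and 0.84 (−0.63 ± 0.38, limma adjusted p = 0.87). Igfbp3, the main carrier of IGF1 in plasma, overlapped (1.06 ± 0.52). Igf1r, the IGF1 receptor, gave 0.83, 0.69 and 0.86 in WT and 1.06, 1.02 and 1.12 in KO by 1 probe (0.43 ± 0.16, limma adjusted p = 0.69), and 2 of its 4 probes overlapped. Igf2, a second IGF, stood at 0.42 ± 0.19 without overlap. Over the 24 measured genes of the axis, 3 were higher and 4 lower at an unadjusted p under 0.05, where the shares over all probes were 4% and 2.25%, and the median was −0.08 against 0.01 for all probes. Without 569 replicate 3, only Igf1 and Igfals of the list were called, both lower.

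**Figure D3:**
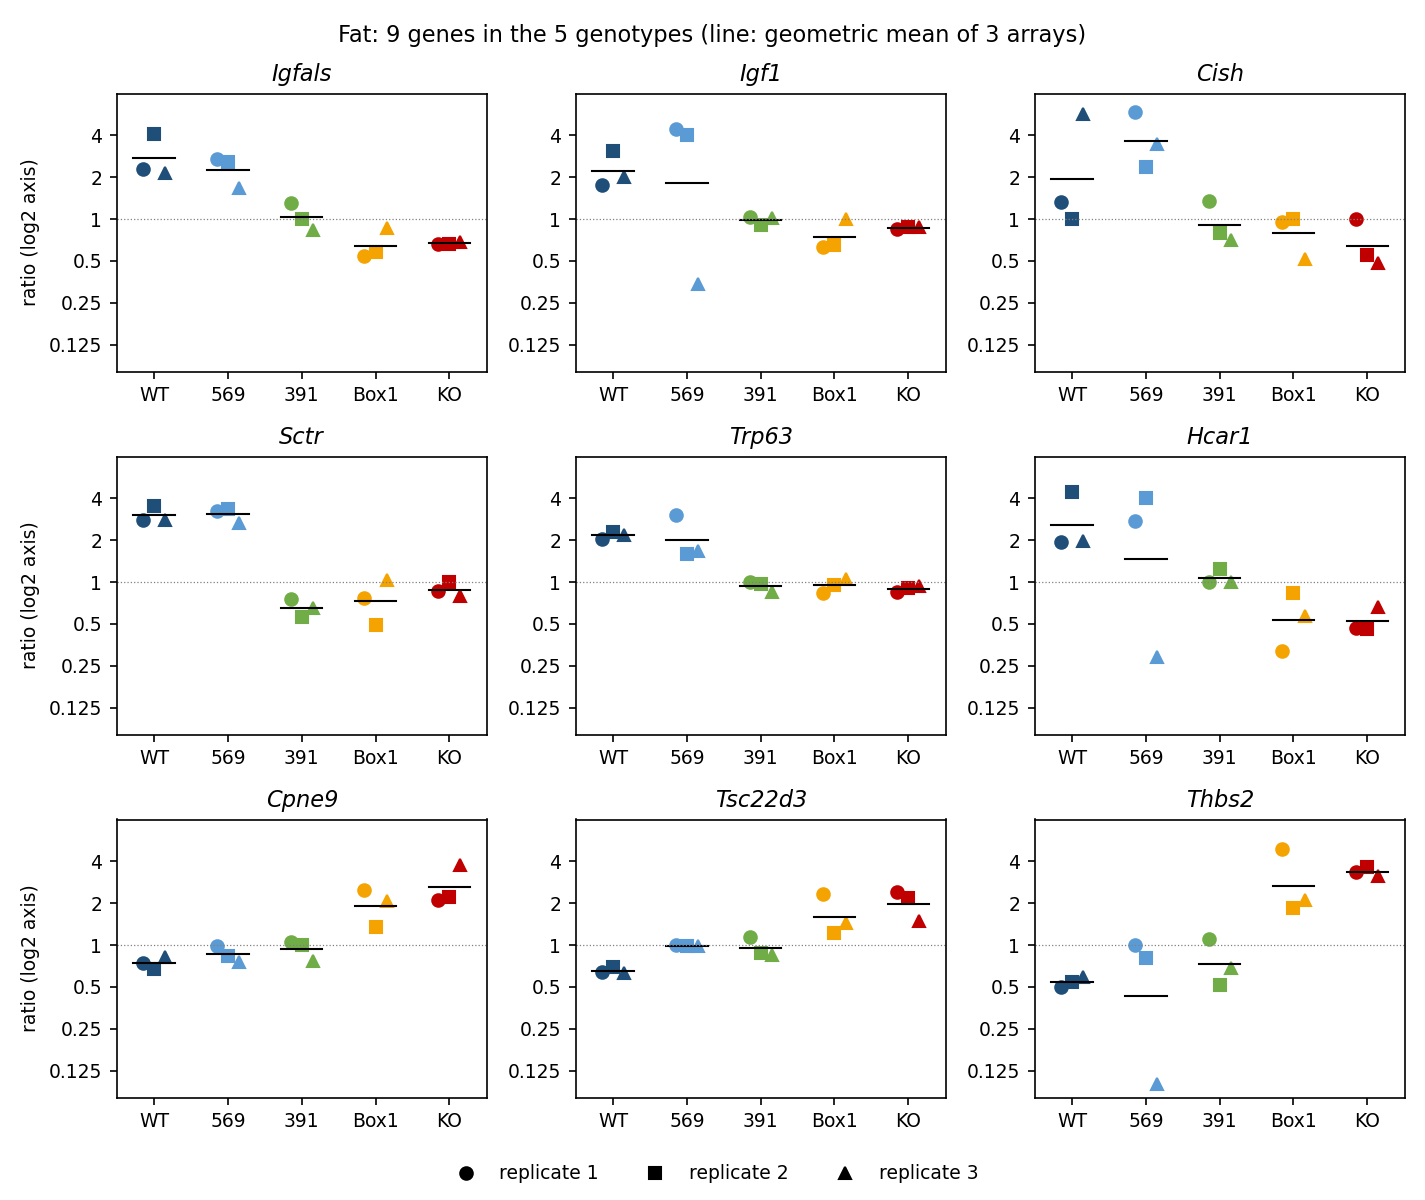
Ratio of 9 genes (log2 y axis) in the fat arrays of the 5 genotypes (x axis), 1 symbol per array, with lines at the geometric mean of 3 arrays. For Sctr and Trp63 the 391, Box1 and KO arrays all lie below WT and 569, while Cpne9 and Thbs2 lie higher in the Box1 and KO arrays than in WT, and 569 replicate 3 is the lowest array for Igf1, Hcar1 and Thbs2.

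Beyond the axis, Sctr, the secretin receptor, had the smallest p of all probes. It gave 2.8, 3.52 and 2.78 in WT and 0.86, 1 and 0.79 in KO, a 3.43-fold higher mean in WT (−1.78 ± 0.22, limma adjusted p = 0.086). The groups lay far apart. It passed the test in the fat of 391 against WT (−2.22, limma adjusted p = 0.0081) and of Box1 against WT (−2.05, limma adjusted p = 0.038), where 6 probes (0.0129%) and 1 probe (0.00214%) were called. These comparisons share the WT arrays, and the 391 and Box1 arrays lie on other slides than WT. KO and 391 arrays, on one slide, differed by 0.44, and 569 and WT arrays, on another, by 0.03.

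Trp63, the epithelial transcription factor p63, gave 2.05, 2.3 and 2.18 in WT and 0.85, 0.91 and 0.93 in KO (−1.28 ± 0.20, limma adjusted p = 0.12). It was called without 569 replicate 3 (limma adjusted p = 0.032). A second Trp63 probe gave 0.87, 1 and 1.07 in WT and 1, 1.03 and 0.93 in KO and showed no separation. Means over the 16 keratinocyte markers lay between 0.02 and 0.23 in WT and between −0.05 and 0.09 in KO, and Krt5, a basal keratin, overlapped.

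Hcar1 and Hcar2, receptors through which lactate and hydroxybutyrate restrain lipolysis, both stood lower. Hcar1 gave 1.95, 4.45 and 1.98 in WT and 0.47, 0.46 and 0.66 in KO (−2.30 ± 0.76, limma adjusted p = 0.64), and Hcar2 gave 1.92, 5.36 and 1.56 against 0.41, 0.45 and 0.78 (−2.27 ± 0.91, limma adjusted p = 0.75). WT replicate 2 was highest for both genes, and the groups did not overlap. Hcar1 was called without 569 replicate 3 (limma adjusted p = 0.042), where that array had a ratio of 0.29. Aplnr, the apelin receptor, gave 1.79, 2.43 and 1.38 in WT and 0.71, 0.7 and 0.83 in KO (−1.29 ± 0.26, limma adjusted p = 0.30). Mest, an imprinted gene that tracks fat expansion, gave 2.13, 2.14 and 5.36 in WT and 0.28, 0.27 and 1.11 in KO (−2.73, limma adjusted p = 0.73), while a second Mest probe overlapped (−0.20).

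Esr1, the estrogen receptor, gave 1.75, 2.23 and 1.11 in WT and 0.41, 0.65 and 0.92 in KO (−1.38 ± 0.33, limma adjusted p = 0.42). The remaining lower genes of the rule were smaller, from −0.99 for Sppl2a, a membrane protease, to −0.35 for Vmn1r46 and Eed, a Polycomb subunit. Between these lay Zbtb12 (−0.83), Mboat1, a lysophospholipid acyltransferase (−0.79), Klre1 (−0.66), Pgap2 (−0.54), Cp, which encodes ceruloplasmin (−0.47), Rbfox2, a splicing factor (−0.45), Glod4 (−0.42) and Ugt1a2 (−0.41). None of them passed the test. A second Mboat1 probe separated the groups the other way (0.19), and the 3 other Esr1 probes overlapped.

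Genes higher in KO were led by Cpne9, a calcium-dependent phospholipid-binding protein. It gave 0.74, 0.67 and 0.82 in WT and 2.1, 2.21 and 3.77 in KO, a 3.50-fold higher mean in KO (1.81 ± 0.25, limma adjusted p = 0.086). The groups did not overlap, but a second probe gave 1.16, 0.98 and 0.94 against 1.15, 0.98 and 0.98. Against the 391 arrays on the same slide the first probe stood 1.47 higher (limma adjusted p = 0.12), and without 569 replicate 3 it was called against WT (limma adjusted p = 0.031).

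Tead1, a transcription factor of the Hippo pathway, gave 0.75, 0.6 and 0.62 in WT and 2.03, 1.88 and 1.53 in KO (1.46 ± 0.20, limma adjusted p = 0.086). A second Tead1 probe separated the groups likewise (0.77, 0.91 and 0.62 against 1.91, 1.88 and 1.68), and the third did not (1.22, 0.98 and 1.02 against 1.17, 0.95 and 0.98). Anxa1, an anti-inflammatory annexin, gave 1, 1.05 and 0.82 in WT and 1.47, 1.91 and 1.94 in KO (0.89 ± 0.13, limma adjusted p = 0.11), and its second probe (0.57, 1.02 and 0.68 against 1.8, 1.06 and 1.26) separated the groups too, with a wider spread (0.87 ± 0.58, limma adjusted p = 0.89). By the first probe Anxa1 was 1 of the 8 probes (0.0172%) called between KO and 391 within their slide, as higher in KO (limma adjusted p = 0.037). Without 569 replicate 3, 43 probes (0.0922%) were called there, Anxa1 among them (limma adjusted p = 0.017).

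Gab2, an adaptor of receptor signalling, gave 0.88, 0.84 and 0.94 in WT and 1.77, 1.31 and 1.38 in KO (0.73 ± 0.10), while its other two probes overlapped. Smim41 gave 0.65, 0.53 and 0.65 against 5.75, 2.71 and 2.85 (2.54 ± 0.40, limma adjusted p = 0.12). Lpin1, a phosphatidate phosphatase of triglyceride synthesis, gave 0.42, 0.6 and 0.35 against 1.86, 2.45 and 1.73 by 1 probe (2.16 ± 0.38, limma adjusted p = 0.18), and its other two probes overlapped. For Gab2 and Lpin1 the groups thus separated by 1 probe of 3. The other higher genes of the rule lay between 0.53 for Ccni and 1.45 for Tmem65, among them Aard (1.05), Cfl2, an actin-severing protein (0.94), Ctps, the CTP synthase (0.82), Foxk2, a forkhead factor (0.72), Trim44 (0.58) and 6030458C11Rik (0.56). Another probe of 6030458C11Rik (−0.68) and one of Tmem65 (−0.16) separated the groups the other way. The other probes of Ccni (0.14 and 0.06) and Cfl2 (0.23) overlapped, while a second Ctps probe separated the groups likewise (0.67).

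Several genes induced by glucocorticoids were among those higher in KO. Of 17 measured genes of the glucocorticoid and steroid list, 7 were higher and 1, Esr1, lower at an unadjusted p under 0.05, where the shares over all probes were 4% and 2.25%. None was called in the fit of 15 arrays, 4 of the 17 differences lay below 0, and the median was 0.31. Tsc22d3, which encodes the glucocorticoid-induced leucine zipper, gave 0.35, 0.36 and 0.51 in WT and 2.31, 2.6 and 1.42 in KO by its most variable probe (2.35 ± 0.43, limma adjusted p = 0.20). A second probe gave 0.64, 0.7 and 0.63 against 2.41, 2.19 and 1.48 (1.60 ± 0.22, limma adjusted p = 0.086; called without 569 replicate 3, 0.031). The third gave 0.91, 1.01 and 1.04 against 1.03, 0.93 and 0.92. Thus 2 of its 3 probes separated the groups.

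Fkbp5, a co-chaperone of the glucocorticoid receptor, gave 0.35, 0.3 and 0.54 in WT and 2.67, 2.03 and 1.17 in KO (2.27 ± 0.50, limma adjusted p = 0.39). Mt2, a metal-binding metallothionein, gave 0.35, 0.4 and 0.42 against 5.01, 2.15 and 1.69 (2.76 ± 0.78, limma adjusted p = 0.55). Sgk1, a kinase induced by glucocorticoids, gave 0.75, 0.72 and 0.8 against 1.61, 2.72 and 1.88 and was chosen after its values were seen (1.42). Among the probes that stand for the list, only that of Sult1a1, a sulfotransferase, was called without 569 replicate 3 (1.18, limma adjusted p = 0.042). Nr3c1, the glucocorticoid receptor itself, stood at 0.10 and overlapped.

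Per1, a clock repressor that glucocorticoids also induce, gave 0.57, 0.92 and 0.66 in WT and 1.87, 2.45 and 1.84 in KO (1.54 ± 0.47, limma adjusted p = 0.58). Rora, a nuclear receptor of the clock, stood at 1.37 and Cry2, a clock repressor, at 0.95, both without overlap. A second Per1 probe overlapped (0.66). In the clock list 3 of 17 were higher and 0 lower at an unadjusted p under 0.05, against 4% and 2.25% of all probes. Among 22 immediate early genes 3 were higher, Jun (0.86), Klf4 (1.26) and Myc (0.35), all transcription factors, and 0 lower, against the same 4% and 2.25%, and 6 had KO arrays above WT without overlap, as had 8.46% of all probes. Of 22 heat shock and unfolded protein genes 4 were higher (Herpud1, Hspb1, Atf4 and Hsph1, from 0.73 to 1.17) and 0 lower, against the same shares. Cdkn1a, a cell cycle inhibitor, gave 0.54, 0.57 and 0.41 against 2.69, 2.04 and 1.4 (1.98 ± 0.68, limma adjusted p = 0.67). None of these genes passed the test, in either fit.

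Of 20 adipocyte markers 1, Gpd1, was lower at an unadjusted p under 0.05 (2.25% of all probes) and 0 higher (4%), with a median of 0.10. Adipoq, the adiponectin gene, gave 1.05, 1.2 and 1.1 in WT and 0.87, 1.05 and 0.86 in KO, an overlap (−0.27 ± 0.45). Lep, which encodes leptin, gave 0.52, 0.69 and 0.84 in WT and 1.54, 1 and 1.49 in KO, without overlap (0.98 ± 0.57, limma adjusted p = 0.87). Pdk4, a kinase that spares glucose in fasting, gave 0.83, 0.67 and 0.27 against 1.55, 1.71 and 1.85 (1.68 ± 0.46, limma adjusted p = 0.52). Scd2, a fatty acid desaturase, gave 1.46, 1.45 and 1.36 against 1, 0.72 and 0.8 (−0.77 ± 0.22, limma adjusted p = 0.56).

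Other lipid lists held single genes. Fatty acid synthesis had 1 higher (Mlxipl, a lipogenic factor) and 1 lower (Scd2) of 20, oxidation 1 and 1 of 25, cholesterol synthesis and uptake 1 and 1 of 21, and lipolysis 0 and 2 of 19, all at an unadjusted p under 0.05 and against 4% and 2.25% of all probes. The 35 genes of the mitochondrial respiratory chain had 0 of either kind and a median of 0.08, and the 28 cytosolic ribosomal proteins 0 higher and 1 lower.

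Among matrix genes 1 stood far from the rest. Thbs2, a matrix glycoprotein that binds collagen and curbs vessel growth, gave 0.5, 0.54 and 0.59 in WT and 3.33, 3.67 and 3.12 in KO. The groups lay far apart (2.63 ± 0.69, limma adjusted p = 0.45), and it was called without 569 replicate 3 (SE 0.33, limma adjusted p = 0.031), where that array had a ratio of 0.1. Thbs2 stood 2.20 above the 391 arrays of the same slide, a call without 569 replicate 3 (limma adjusted p = 0.042). Thbs1, Ccn2 and Timp3, all matrix regulators, stood at 1.14, 1.39 and 1.01 without overlap. Of 37 collagen and matrix genes, 5 were higher and 1 lower at an unadjusted p under 0.05, against 4% and 2.25% of all probes, with a median of 0.07. Acta2, smooth muscle actin, gave 0.4, 0.35 and 0.69 against 4.31, 1.81 and 4.19 by the probe of largest difference among 5, of which 2 overlapped (2.80 ± 0.66, limma adjusted p = 0.42), while the mural markers together averaged −0.29 to 0.06 in WT and 0.07 to 0.28 in KO.

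By median and sign of the differences, the interferon and MHC list leaned below 0, while the complement and cytokine lists did not. Of 31 interferon and MHC genes 25 had a difference below 0, where 53.7% of all probes lay above 0, with a median of −0.35. In 7 of them the KO arrays lay below WT without overlap, as in 4.61% of all probes, and 0 were higher or lower at an unadjusted p under 0.05. H2-K1, an MHC class I heavy chain, gave 1.5, 1.6 and 1.44 in WT and 0.97, 0.64 and 0.68 in KO (−1.01 ± 0.66), and Psmb9, an immunoproteasome subunit, stood at −1.18 ± 0.63, neither passing the test (limma adjusted p = 0.89 and 0.84). Lymphocyte markers were low in WT replicate 2 and KO replicates 2 and 3, and the part of this in the immune genes was not tested. Of 16 complement genes 11 had a difference above 0, with a median of 0.08. The KO arrays lay below WT without overlap for 4 of them and above for 1, against 4.61% and 8.46% of all probes. Cfb, complement factor B, was among the 4 (1.51, 2.07 and 1.74 against 0.91, 0.67 and 0.99). Of 32 cytokine and acute inflammation genes 17 differed above 0 and 15 below, with a median of 0.08, and the KO arrays lay above WT without overlap for 5 and below for 3. Neither list had a gene at an unadjusted p under 0.05.

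The liver comparison shows which differences are larger in one tissue. With limma over 30 arrays, 159 probes (0.341%) had a KO difference that differed between fat and liver, against 899 (1.93%) called between KO and WT in liver. Igfals stood lower in both tissues, at −2.03 in fat and −3.83 ± 0.22 in liver, and the difference between tissues passed the test (1.80 ± 0.37, limma adjusted p = 0.032). Sctr (−1.78 in fat, 0.02 in liver), Trp63 (−1.28 and −0.05), Cpne9 (1.81 and −0.17) and Smim41 (2.54 and −0.05) differed between tissues as well. They had been named for a small p in fat, so their larger difference in fat follows in part from that choice. Liver genes that depend on the male pattern of growth hormone, such as Cyp4a12a (−0.50 in fat, −6.27 in liver), had the larger difference in liver. In liver, the slides of KO and WT also differ.

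**Figure D4:**
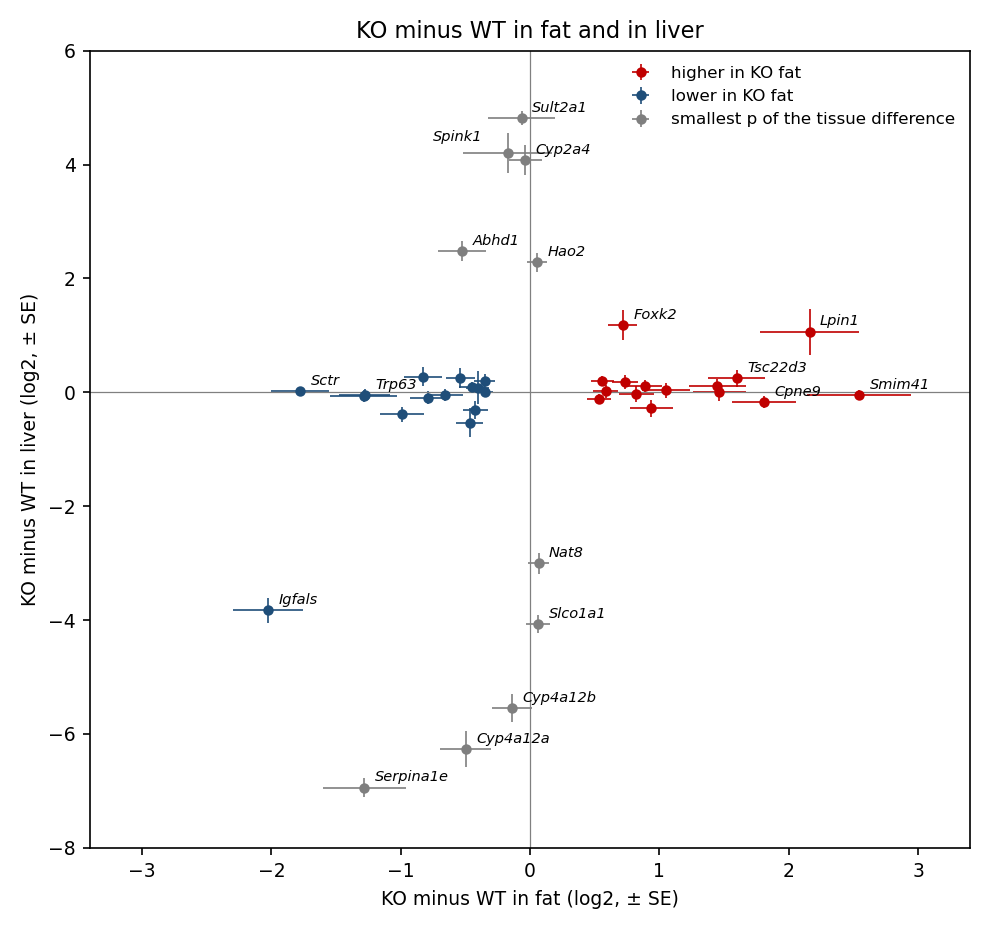
KO minus WT in fat (x axis) and liver (y axis), log2 ± SE, for the 30 genes leading in fat and the 10 of smallest p for the tissue difference. By the plotted probes, Igfals and Cp lie below 0 in both tissues and Lpin1 and Foxk2 above 0 in both. They are examples: other leading genes, such as Glod4 and Tsc22d3, also share a sign, and others, such as Cpne9, do not. Cp was not called in liver (limma adjusted p = 0.43), where its KO and WT arrays overlapped. The other Cp probes gave 0.10 and −0.45 in fat and 0.08 and −0.12 in liver. The other Foxk2 probes gave −0.41 and 0.33 in fat and 0.03 and −0.16 in liver. Of the genes leading in fat, all but Igfals (−3.83 in liver), Cp (−0.53) and Foxk2 (1.18) lie closer to 0 in liver, and the 10 others lie near 0 in fat except Serpina1e (−1.28).

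The 44 probes called without 569 replicate 3 gave 32 named genes. All 44 had KO and WT arrays that did not overlap, where 8.46% of all probes had KO above WT and 4.61% below. The 44 were selected by that same difference, so the separation follows from the selection. Of the 34 higher probes, 29 also had means above WT in both 391 and Box1, and all 10 lower ones stood below WT in both. These comparisons share the WT arrays by which the probes were selected, and the 391 and Box1 arrays lie on other slides than WT. The share over all probes was not computed, so no conclusion is drawn from these counts. Further genes that rose in that fit, chosen after their values were seen, included Irak2, a kinase of interleukin-1 signalling (0.49, 0.39 and 0.39 in WT, 1.9, 1.3 and 1.6 in KO; 1.91, limma adjusted p = 0.038), and Cyp2d22, a cytochrome P450 (0.93, 1.02 and 0.77 against 2.18, 2.42 and 2.38; 1.37, limma adjusted p = 0.031). Tle3, a corepressor with a role in fat cell formation, rose by 1.46 in it (limma adjusted p = 0.031). Rgs7bp, a regulator of G-protein signalling, fell, with ratios of 1.67, 2.37 and 1.86 in WT and 0.46, 0.43 and 0.83 in KO (−1.83, limma adjusted p = 0.031), and its second probe overlapped.

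The split of calls differed when cell-type marker means were fitted as covariates. With the muscle and lymphocyte means as covariates, also without 569 replicate 3, 28 probes were called, 10 higher and 18 lower. Igfals (−2.18), Sctr (−1.98), Trp63 (−1.53) and Igf1 (−1.55 and −1.67) were called there (limma adjusted p between 0.0090 and 0.023). Cpne9 (1.74), Tead1 (1.36) and Tsc22d3 (1.65) kept their direction and were not called (limma adjusted p = 0.074, 0.070 and 0.059).

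**Figure D5:**
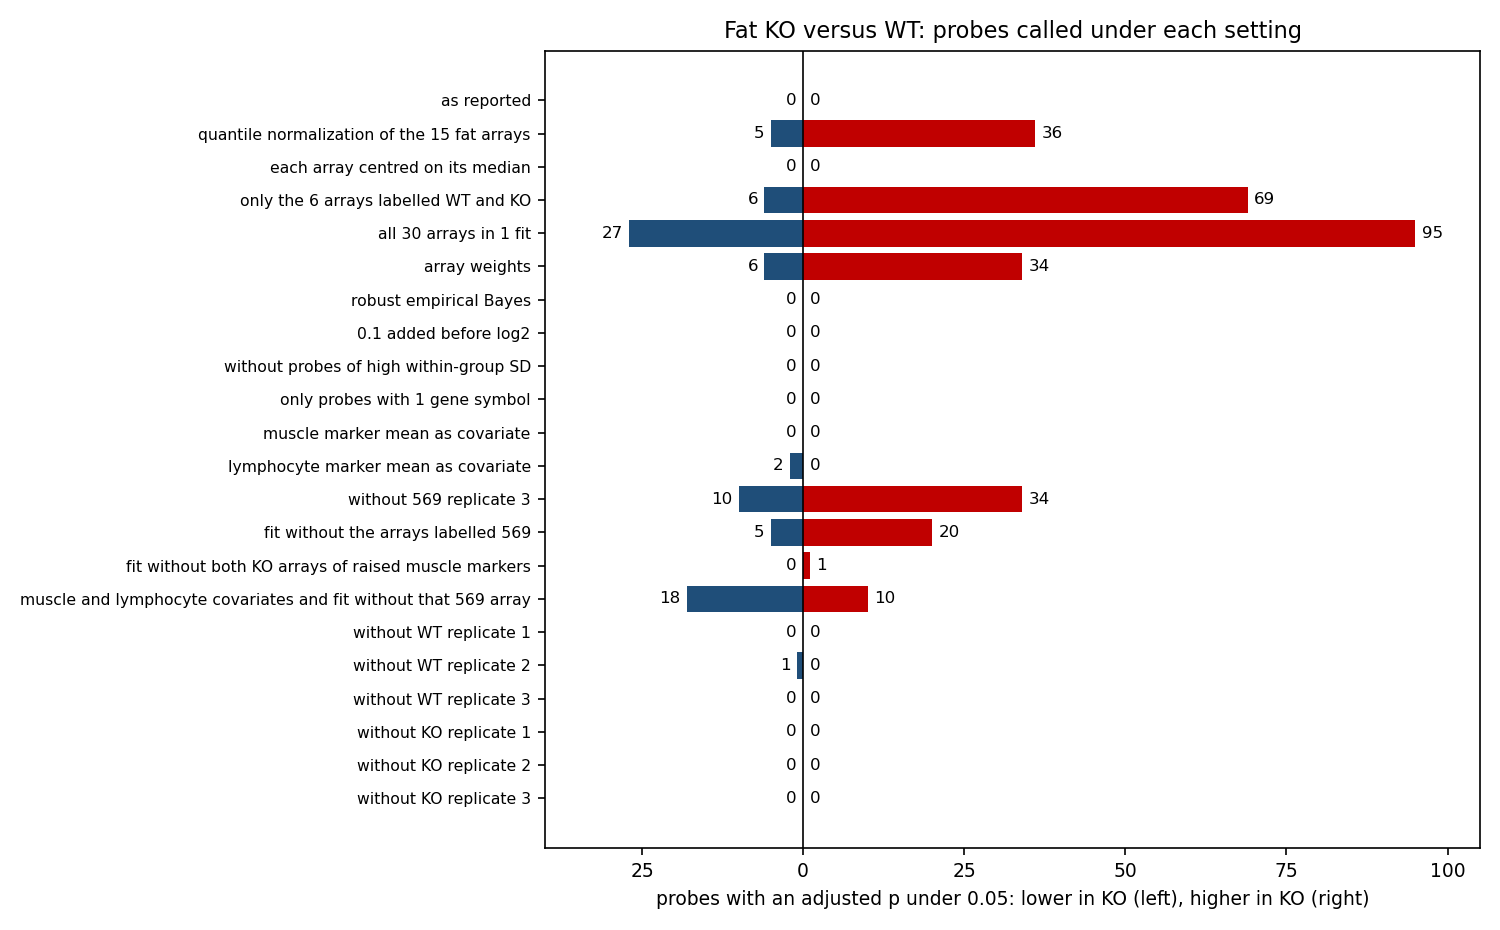
Number of probes with an adjusted p under 0.05 between KO and WT in fat (x axis, lower in KO to the left, higher to the right) under each setting (y axis). The count is 0 as reported and reaches 122 with all 30 arrays in 1 fit.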

How the data were processed

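Per the labels, total RNA from frozen tissue was biotin-labelled and run on Illumina bead arrays. The deposited values are ratios to the probe's median over the 15 arrays of a tissue: in fat the median is exactly 1 for all 46643 probes, from which the authors' division is inferred. The authors' background correction and normalization were not given in the sources used here. Signal over background is unknown, and 3 arrays per group bound the precision.

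Ratios were transformed to log2 without an offset and fitted with limma 3.58.1 in R 4.3.3, all 15 fat arrays in 1 fit (10 residual degrees of freedom), and all 30 for the contrast between tissues. Tests were two-sided with Benjamini-Hochberg adjustment over all probes at 0.05. The code of the fit was run on simulated independent normal noise with added differences. That simulation held no slide effect, shift of cell types or outlying array, so it does not bear on those limits. The platform annotation gave 1 symbol to 32794 probes, several to 55 and none to 13794. A gene in a list stands by the probe of largest SD over the 9 fat arrays labelled 569, 391 and Box1. Of 742 list genes in 35 lists, 679 were measured. Named were 11 genes of the axis and fat hormones, 15 genes each way of smallest p without overlap, up to 4 per list and 5 each way between tissues. The members, lists and named genes were chosen with earlier results of these data known. Since no probe was called, the promoter motif was described in the leading genes. Probe positions were not used here.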

Additional observations from a re-analysis of the deposited data

Results flagged for a closer look

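For 159 probes the KO minus WT difference differed between fat and liver by a limma interaction test over 30 arrays. Of these, 28 genes are named here. KO and WT lie on different slides in both tissues, so slide and genotype cannot be told apart. Skeletal muscle markers stood higher in every KO fat array than in every WT one, and their part was not tested. Values are the fat difference minus the liver difference in log2 units, all with a limma adjusted p under 0.05. Of the 28 genes, 12 had the larger difference in fat. All 12 had been named for a small p between KO and WT in these fat arrays. Others were named by the p of this test itself, so the split follows from how genes were named.

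Higher in KO fat with little difference in liver were Smim41 (2.59), Cpne9 (1.98), Tead1 (1.45), Tsc22d3 (1.35), Tmem65 (1.34), Cfl2 (1.22), Anxa1 (0.77) and Ccni (0.64). Each value is from a single probe. Other probes of Cpne9, Tead1, Tsc22d3, Cfl2 and Ccni overlapped between KO and WT in fat, and a Tmem65 probe separated them the other way. Further probes of Tead1, Tsc22d3 and Anxa1 separated the groups likewise. Lower in KO fat with little difference in liver were Sctr (−1.80), Trp63 (−1.23), Zbtb12 (−1.10) and Rbfox2 (−0.55). Igfals stood low in both tissues and lower in liver (1.80).

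The others had the larger difference in liver. Those lower in KO liver were Cyp4a12a (5.77), Serpina1e (5.66), Cyp4a12b (5.40), Slco1a1 (4.13), Nat8 (3.07), Gstp1 (2.41) and C6 (2.21). Those higher in KO liver were Sult2a1 (−4.88), Spink1 (−4.38), Cyp2a4 (−4.11), Abhd1 (−3.01), the lipoprotein lipase gene Lpl (−2.89), Hao2 (−2.23), Scd2 (−1.83) and Chil1 (−1.48). Members of near-identical families (Cyp4a12, Serpina1, Sult2a, Cyp2a) may share a probe. Lpl stood at −0.19 in KO fat and 2.70 in KO liver. Scd2 stood at −0.77 in KO fat and 1.06 in KO liver, where it was not called (limma adjusted p = 0.085).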

How the results depend on the processing

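No paired analysis was possible because the labels carry no replicate numbers and the numbers used here follow accession order. The count of 0 probes called between KO and WT in fat held with each array centred on its median, robust empirical Bayes, 0.1 added before log2, no probes of high spread, only probes with 1 symbol and the muscle marker mean as covariate. It was 41 (36 higher, 5 lower) after quantile normalization, 75 (69 and 6) with only the 6 arrays, 122 (95 and 27) with all 30 arrays in 1 fit, 40 (34 and 6) with array weights and 2 (0 and 2, Sctr and Igfals) with the lymphocyte mean as covariate. Leaving out 1 WT or KO array gave 0 to 1. Alternatives chosen after seeing the data gave 44 without 569 replicate 3, 25 without the 569 arrays, 1 without both KO arrays of raised muscle markers, and 28 (10 and 18) with muscle and lymphocyte covariates and without that 569 array. Of the 44, 25 were among the 40 with array weights and 17 among the 75 with 6 arrays. Thbs2 and Trp63 were called in all 6 of the settings with 28 to 122 calls. Those settings were taken by their number of calls and reuse the same KO and WT arrays, so they give no separate support. With the 15 fat arrays as reported, neither gene was called (limma adjusted p = 0.45 and 0.12). The 159 probes of the tissue difference became 431 (251 higher, 180 lower) after quantile normalization and 86 to 216 without 1 array, 86 without fat WT replicate 1. Reversed were Socs2 by its first probe (0.13 without both KO arrays of raised muscle markers), its second (−0.10 to 0.059 without 1 array, above 0 without WT replicate 1 and, at 0.02, without KO replicate 1) and the third (0.13 with the muscle covariate, 0.061 with both covariates and without that 569 array), and Socs3 (0.044 with the muscle covariate). The cause was not tested.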

Other observations

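Hbb-b2, a beta-globin gene of a near-identical family whose copies a probe may not tell apart, had the largest difference among the erythroid markers. It gave 0.58, 1 and 0.51 in WT fat and 8.08, 8.36 and 11.79 in KO fat (3.80 ± 0.82, limma adjusted p = 0.35). It was not called without 569 replicate 3 alone. It was called without all 569 arrays and with only the 6 arrays (limma adjusted p = 0.00034 and 0.021). With both covariates and without 569 replicate 3 it was also called (limma adjusted p = 0.0087). The 391 arrays gave 9.68, 6.55 and 8.3, the Box1 arrays 0.56, 0.53 and 0.56, and the 569 arrays 0.83, 10.82 and 0.5. High and low arrays thus occur within 1 genotype. In liver it gave 0.97, 0.83 and 0.96 in WT and 7.8, 11.77 and 10.1 in KO. Hba-a1, an alpha-globin gene, gave 0.73, 1.15 and 0.61 in WT fat and 1.02, 1.12 and 0.96 in KO fat, and Alas2, the erythroid enzyme of heme synthesis, gave 0.68, 1.17 and 0.5 against 1.11, 1 and 1.17. Both overlapped.

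Between KO and 391, which share a slide, the 8 called probes were higher in KO for Gdi2, Pttg1, Abca5 and Anxa1 and lower for Thg1l, Fmr1, Adat2 and 1 unnamed probe. All but Anxa1 were named here after their values had been seen.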
